A study of Mus musculus with 48 samples.

Results

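Ankrd1, Ccn1, Ccn2, Amotl2, Lats2, Axl, Yap1 and Tead1 are 8 genes tied to YAP signalling and to mechanical stretch, and their transcripts were followed in mouse kidneys after subtotal nephrectomy. They were chosen by name. Each was represented by the probe set of that gene alone that had the highest mean over the arrays, and all 8 passed the filter on low values, out of 13174 genes tested. Ankrd1, Ccn1, Lats2 and Yap1 had further kept probe sets, which served as a second reading.

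YAP is a transcriptional coactivator that does not bind DNA itself but works through the TEAD factors. The Hippo kinase cascade phosphorylates YAP and its relative TAZ and keeps them in the cytoplasm. Cell spreading, a stiff matrix and tension in the actin cytoskeleton bring them into the nucleus, where genes for matrix proteins, cytoskeletal regulators and inhibitors of YAP itself are switched on. In the kidney YAP and TAZ are studied in tubule cells under repair and in matrix-producing fibroblasts.

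RNA of whole kidneys was hybridised to 48 Affymetrix mouse arrays, 1 per mouse, in 12 groups of 4. Mice of the strains FVB, described in the labels as predisposed to kidney lesions, and C57BL/6 (B6), described as not predisposed, had subtotal nephrectomy (Nx) or a sham operation at 9 weeks of age and were studied 2, 28 or 53 days later. Nx thus stands for surgical loss of kidney mass, sham for surgery without it, and the strains differ over their whole genome. Values are log2 levels as deposited, a difference of 1 is a 2-fold change, and each gene's level is compared only with itself. The number of arrays limits the precision, and a mouse number recurring between groups was not taken as a pairing.

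Promoter sequences are shown for Ankrd1, Ccn1 and Axl, which were higher after Nx in both strains, and for Yap1, which passed the threshold in no surgery comparison. Each window runs along the gene's strand over 250 bases before and 50 after the start annotated by RefSeq on the build GRCm38.p6. Capitals mark the core hexamer of TEAD binding sites, CATTCC on either strand (GGAATG on the other). The windows lie at chr19:36119795-36120094 for Ankrd1, chr3:145649936-145650235 for Ccn1, chr7:25788684-25788983 for Axl and chr9:8004547-8004846 for Yap1, all on the minus strand.
Ankrd1: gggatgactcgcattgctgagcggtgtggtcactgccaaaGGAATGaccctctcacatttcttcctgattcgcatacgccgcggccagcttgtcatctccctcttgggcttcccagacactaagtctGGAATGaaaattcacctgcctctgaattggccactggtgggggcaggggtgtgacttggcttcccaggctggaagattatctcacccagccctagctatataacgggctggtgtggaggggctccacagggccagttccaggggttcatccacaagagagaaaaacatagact
Ccn1: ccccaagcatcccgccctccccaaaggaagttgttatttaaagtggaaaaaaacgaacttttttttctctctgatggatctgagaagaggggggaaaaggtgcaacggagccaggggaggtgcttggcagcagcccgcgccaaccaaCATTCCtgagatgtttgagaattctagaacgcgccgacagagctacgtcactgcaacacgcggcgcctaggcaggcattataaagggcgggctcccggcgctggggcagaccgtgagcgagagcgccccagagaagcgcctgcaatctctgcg
Axl: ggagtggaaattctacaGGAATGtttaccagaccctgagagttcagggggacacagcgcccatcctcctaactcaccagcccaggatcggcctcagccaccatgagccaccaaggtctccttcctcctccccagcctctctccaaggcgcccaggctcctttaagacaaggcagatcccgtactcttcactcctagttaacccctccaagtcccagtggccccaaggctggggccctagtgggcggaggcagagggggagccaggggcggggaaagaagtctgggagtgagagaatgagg
Yap1: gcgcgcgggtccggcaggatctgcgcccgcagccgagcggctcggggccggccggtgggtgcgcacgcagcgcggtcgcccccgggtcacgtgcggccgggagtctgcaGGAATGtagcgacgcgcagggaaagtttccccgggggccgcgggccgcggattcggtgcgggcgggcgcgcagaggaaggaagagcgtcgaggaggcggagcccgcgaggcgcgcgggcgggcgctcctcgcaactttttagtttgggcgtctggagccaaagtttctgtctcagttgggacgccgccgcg

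Ankrd1 holds the hexamer 2 times, beginning 210 and 123 bases before the start. Ccn1 holds it once at 103 bases, Axl at 233 bases and Yap1 at 141 bases before the start. Amotl2 has 1 match 65 bases before its start, and 1 of the 2 Lats2 windows has 1 just after its start. Ccn2 and Tead1 are named only. The hexamer occurs in 14.7% of 32851 promoter windows of this length. The AP-1 motif TGACTCA (or TGAGTCA) occurs in 5.2% of them and the CArG box, the motif of serum response factor, in 1.63%, with no match in the windows of these 6 genes. A match describes the letters only, and the windows come from the reference genome, which is that of a C57BL/6 mouse.

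Of the 8 genes, 6 were higher in Nx than in sham kidneys of FVB mice at day 53: Ankrd1, Ccn1, Ccn2, Lats2, Axl and Tead1. None was lower. Over all tested genes 25.9% were called higher and 27.8% lower there (limma over 13174 genes, Benjamini-Hochberg adjusted p under 0.05). At day 2 in FVB, 4 were higher (Ankrd1, Ccn1, Lats2 and Axl), and none was lower, where 24.8% of all genes were higher and 30.0% lower. At day 28 in FVB, Ankrd1 and Axl were higher, and none was lower, where 7.35% of all genes were higher and 8.81% lower. In B6 at day 2, 4 were higher (Ankrd1, Ccn1, Ccn2 and Axl) and none was lower, where 20.2% of all genes were higher and 24.4% lower. In B6 at day 28, Ankrd1 and Axl were higher, where 9.85% of all genes were, and Amotl2 was lower, where 9.14% of all genes were. In B6 at day 53 only Axl passed the threshold, where 8.03% of all genes were called higher and 6.68% lower. The median Nx effect, that is Nx minus sham on the log2 scale, over the 8 genes was 0.21, 0.18 and 1.09 in FVB at days 2, 28 and 53, and 0.55, -0.04 and 0.01 in B6. The median over all genes lay between -0.03 and -0.01 in these comparisons. In RNA of whole kidneys, which holds many cell types, fewer cells of a type and less RNA per cell cannot be told apart.

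The 4 Nx values lay wholly above the 4 sham values for 4, 3 and 5 of the 8 genes in FVB at days 2, 28 and 53, and for 3, 2 and 2 in B6. Over all genes this held for 20.2%, 9.2% and 22.2% in FVB and for 18.2%, 9.86% and 11.3% in B6. They lay wholly below the sham values for Yap1 in FVB at day 28 and for Amotl2 in B6 at day 28, and for none of the 8 in the other 4 comparisons. Over all genes this held for 23.7%, 12% and 24.0% in FVB and for 22%, 9.7% and 10.4% in B6. On 19 arrays (16 of 24 Nx and 3 of 24 sham arrays) the mean of 10 pancreatic acinar genes lay above 5. Leaving them out keeps only Nx mouse 1 (FVB) and 3 (B6) at day 2, and Nx mouse 2 (FVB) and 3 (B6) at day 28. Nx effects of that setting on those days rest on a single Nx mouse per strain and are given without p-values or counts. At day 53 that setting keeps only Nx mice 8 and 10 (FVB) and Nx mice 2 and 4 (B6). In that setting the number of the 8 genes past the threshold was 2 in B6 at day 53, with Axl higher and Lats2 lower. Without mouse 7 of the FVB Nx group at day 28 it was 1, without mouse 3 of the B6 Nx group at day 28 it was 1, and without mouse 2 of the B6 Nx group or mouse 6 of the B6 sham group at day 53 it was 2 there. Fitted on the arrays compared alone it was 1 in B6 at day 28. Axl (adjusted p = 0.165) and Amotl2 (adjusted p = 0.053) no longer passed there. With array weights the number was 4 in B6 at day 53, with Ankrd1 and Axl higher and Ccn2 and Lats2 lower.

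**Figure D1:**
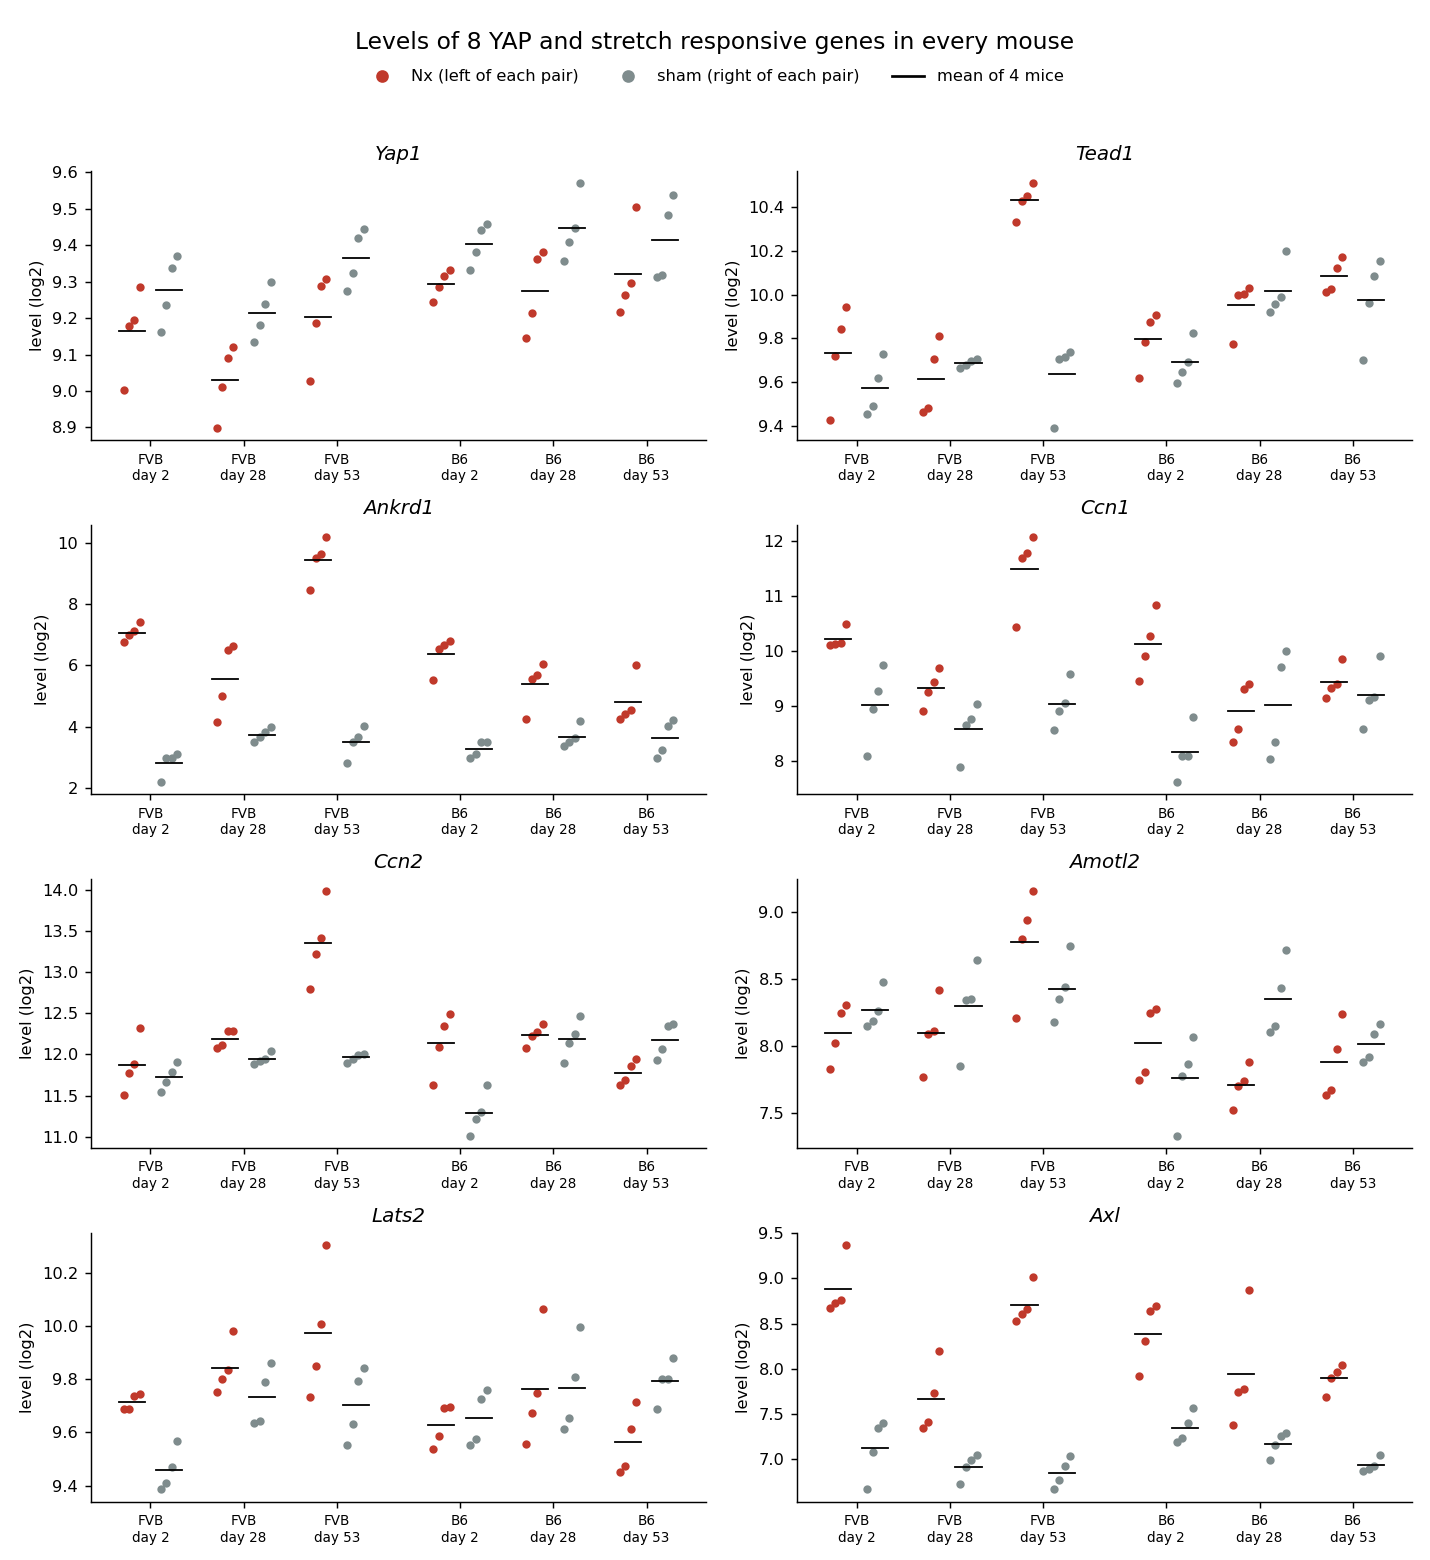
Log2 level of each of the 8 genes (vertical axes, each on its own scale) in the 48 mice, by strain and day (horizontal axes). Points are single mice, Nx in red to the left of sham in grey within each pair, and bars are means of 4 mice. Ankrd1, Ccn2 and Tead1 of the FVB Nx group at day 53 lie wholly above every other group.

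Yap1, the coactivator itself, passed the threshold in none of the 6 surgery comparisons, with Nx effects between -0.18 and -0.09 (SE 0.07). In FVB at day 53 its levels were 9.03, 9.19, 9.29 and 9.31 in Nx kidneys, against 9.27, 9.32, 9.42 and 9.45 in sham kidneys. The ranges overlap, and the difference of -0.16 (SE 0.07) had an adjusted p of 0.0515. Leaving out mouse 7 (-0.20), mouse 8 (-0.19) or sham mouse 5 (-0.19) of that comparison took it past the threshold. On day 28 in FVB the levels were 8.90, 9.01, 9.09 and 9.12 in Nx kidneys, against 9.14, 9.18, 9.24 and 9.30 in sham kidneys. They do not overlap, yet the difference of -0.18 gave an adjusted p of 0.076. With every array shifted to 1 common median, Yap1 was lower after Nx in 5 of the 6 comparisons, at -0.32 to -0.23, and the exception was B6 at day 53. Under that shift the median effect over all genes in FVB at day 2 was itself -0.20. Yap1 also passed in FVB at day 28 with array weights (-0.23, adjusted p = 0.009) and at day 53 without the arrays that carried skeletal muscle transcripts (-0.26, adjusted p = 0.0115). Without the arrays that carried pancreatic transcripts its effect in FVB at day 2 was -0.27, resting on Nx mouse 1 alone. The other Yap1 probe set passed in none of the 6, with effects between -0.07 and 0.32.

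Tead1 encodes one of the DNA-binding partners of YAP and TAZ. In FVB at day 53 its levels were 10.33, 10.43, 10.45 and 10.51 in Nx kidneys, against 9.39, 9.71, 9.71 and 9.74 in sham kidneys. All 4 Nx mice lay above all sham mice, and above every mouse of the other 11 groups. The Nx effect was 0.79 (SE 0.10, adjusted p = 5.74e-09), a 1.73-fold higher level. In the other 5 surgery comparisons it lay between -0.07 and 0.16 with adjusted p of 0.161 or more, except that without mouse 1 of the FVB Nx group at day 2 it was 0.26 there (adjusted p = 0.0211).

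Ankrd1 encodes a cardiac ankyrin repeat protein of the sarcomere and nucleus and is among the most used readouts of YAP activity. At day 53 in FVB its levels were 8.45, 9.51, 9.64 and 10.20 in Nx kidneys, against 2.82, 3.50, 3.65 and 4.03 in sham kidneys. The Nx mice lay far above all sham mice, with an effect of 5.95 (SE 0.43, adjusted p = 1.88e-14). Sham values of Ankrd1 lay between 2.20 and 4.22 over both strains, around the medians of whole arrays (3.17 to 3.44), so its sham level is not shown to be above background and no fold is given. At day 2 in FVB the levels were 6.77, 6.98, 7.13 and 7.40 in Nx kidneys, against 2.20, 2.96, 2.98 and 3.11 in sham kidneys. The lowest sham value is the lowest value that occurs in the table, and the effect was 4.26 (SE 0.43, adjusted p = 9.25e-11). Between these days, at day 28, the FVB levels were 4.13, 4.98, 6.50 and 6.62 in Nx kidneys, against 3.50, 3.64, 3.82 and 3.97 in sham kidneys. The groups still did not overlap, but the Nx mice spread over a wide range and the effect was 1.83 (SE 0.43, adjusted p = 0.00221). Fitted on the arrays compared alone, that effect no longer passed (SE 0.56, adjusted p = 0.0761).

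By group mean, Ankrd1 in B6 Nx kidneys was highest at day 2. The change of its Nx effect from day 2 to day 28 did not pass (-1.41, SE 0.61, adjusted p = 0.156). On the next brightest probe set that change was -1.455 (adjusted p = 0.0247). At day 2 the levels were 5.52, 6.54, 6.68 and 6.80 in Nx kidneys, against 2.98, 3.09, 3.50 and 3.51 in sham kidneys. The effect was 3.11 (SE 0.43, adjusted p = 1.71e-07). At day 28 the levels were 4.26, 5.55, 5.67 and 6.03 in Nx kidneys, against 3.38, 3.50, 3.62 and 4.18 in sham kidneys, an effect of 1.71 (SE 0.43, adjusted p = 0.00373). At day 53 they were 4.26, 4.41, 4.55 and 6.02 in Nx kidneys, against 2.98, 3.24, 4.03 and 4.22 in sham kidneys. The groups do not overlap, but 1 Nx mouse stands apart, and the effect of 1.19 (SE 0.43) had an adjusted p of 0.056. Without mouse 2 of the Nx group (1.37, adjusted p = 0.0407) or mouse 6 of the sham group (1.39, adjusted p = 0.0419) it passed the threshold. Among the fits that left out 1 mouse the effect was lowest, at 0.78, without Nx mouse 1, the one apart. Adjusted p reached 0.293 among these fits. By group mean, all 6 Nx groups ranked above all 6 sham groups for Ankrd1. Nx groups next to each other in that order overlapped, apart from FVB at day 53, which lay above all the others. The next brightest Ankrd1 probe set gave 0.43 in B6 at day 28 (adjusted p = 0.359), and 5.24 in FVB at day 53. The Ankrd1 effect in FVB at day 28 was 1.32 without the arrays that carried pancreatic transcripts, which left only Nx mouse 2 there.

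Ccn1, or CYR61, is a matrix-associated protein that binds integrins. At day 53 in FVB its levels were 10.43, 11.70, 11.79 and 12.08 in Nx kidneys, against 8.55, 8.91, 9.06 and 9.57 in sham kidneys. No Nx mouse reached down to the sham range, and the effect was 2.48 (SE 0.39, adjusted p = 8.25e-07), 5.56-fold. At day 2 in FVB the levels were 10.11, 10.13, 10.15 and 10.49 in Nx kidneys, against 8.09, 8.94, 9.27 and 9.75 in sham kidneys. The groups did not overlap and the effect was 1.21 (SE 0.39, adjusted p = 0.00774), but without sham mouse 1, the lowest, it was 0.90 (adjusted p = 0.0579). At day 28 the FVB levels were 8.90, 9.24, 9.43 and 9.70 in Nx kidneys, against 7.88, 8.65, 8.76 and 9.04 in sham kidneys, which overlap (0.74, SE 0.39, adjusted p = 0.206).

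Early in B6, at day 2, Ccn1 stood at 9.45, 9.92, 10.28 and 10.83 in Nx kidneys, against 7.62, 8.09, 8.09 and 8.80 in sham kidneys. All Nx mice were above all sham mice, with an effect of 1.97 (SE 0.39, adjusted p = 5.92e-05). At day 28 and day 53 the B6 groups overlapped, with effects of -0.12 and 0.24 (adjusted p = 0.908 and 0.787). The 4 Ccn1 probe sets did not give the same size of change. The next brightest gave 1.63 in FVB at day 53 (adjusted p = 0.00498), 0.30 in FVB at day 2 (adjusted p = 0.649) and 0.66 in B6 at day 2 (adjusted p = 0.296), so the early rise of Ccn1 was called on the brightest probe set and not on that one. The remaining probe sets were not tested singly. At day 2 the dimmest averaged 8.53 in Nx and 7.36 in sham kidneys of FVB, and 8.45 and 6.01 in B6. The next dimmest averaged 8.02 in Nx and 7.71 in sham kidneys of FVB, and 8.11 and 7.37 in B6.

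Ccn2, or connective tissue growth factor, is a matrix-associated protein made by tubule cells and fibroblasts in scarring kidneys. At day 53 in FVB its levels were 12.80, 13.22, 13.41 and 13.99 in Nx kidneys, against 11.90, 11.94, 11.998 and 12.01 in sham kidneys. The Nx mice lay above all sham mice and above every mouse of the other groups, with an effect of 1.39 (SE 0.17, adjusted p = 7.11e-09), 2.62-fold. At days 2 and 28 in FVB the effects were 0.14 and 0.24 (SE 0.17, adjusted p = 0.502 and 0.382). The day 28 groups did not overlap, at 12.078 to 12.285 in Nx and 11.889 to 12.041 in sham kidneys. Fitted on the arrays compared alone, the day 28 effect passed (adjusted p = 0.0433).

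At day 2 in B6, Ccn2 stood at 11.63, 12.09, 12.34 and 12.49 in Nx kidneys, against 11.01, 11.22, 11.30 and 11.63 in sham kidneys. The ranges overlap narrowly, and the effect was 0.85 (SE 0.17, adjusted p = 9.09e-05). These sham values were low themselves. Sham kidneys of B6 averaged 11.29 at day 2, against 12.19 at day 28 and 12.18 at day 53, a difference of -0.89 between day 2 and the later days (SE 0.15, adjusted p = 0.000582), so the early Nx level of 12.14 in B6 sits at the level of later sham kidneys. Ccn2 was the one gene of the 8 past the threshold in that comparison of sham days, where 0.288% of all genes were lower at day 2. In limma, 4 of the 8 had an unadjusted p under 0.05 there. In FVB none of the 8 passed in the same comparison in limma, where 3.58% of all genes did, and 2 had an unadjusted p under 0.05. In B6 at day 53 the levels were 11.63, 11.69, 11.86 and 11.94 in Nx kidneys, against 11.93, 12.07, 12.34 and 12.37 in sham kidneys, which overlap narrowly (-0.40, SE 0.17, adjusted p = 0.116).

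**Figure D2:**
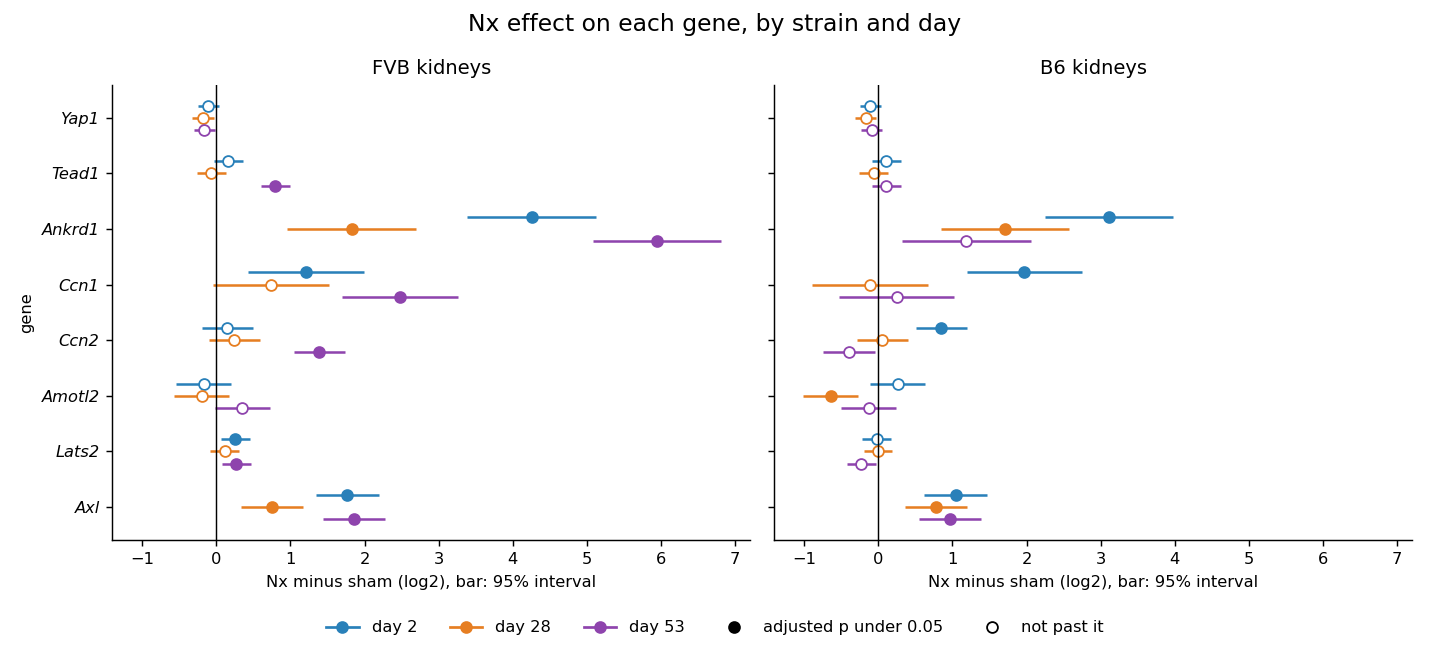
Nx effect on each of the 8 genes (horizontal axes, Nx minus sham on the log2 scale, with 95% intervals) in FVB (left) and B6 (right) kidneys at days 2, 28 and 53. Filled points passed an adjusted p of 0.05. In FVB, Ankrd1 stood at 4.26, 1.83 and 5.95 by day, while the 3 Yap1 points lie just left of 0.

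Amotl2 and Lats2 are both targets and brakes of YAP: Amotl2 is an angiomotin scaffold that holds YAP at cell junctions, and Lats2 is a kinase that phosphorylates it. Amotl2 at day 53 in FVB stood at 8.21, 8.80, 8.94 and 9.16 in Nx kidneys, against 8.18, 8.35, 8.44 and 8.74 in sham kidneys. The groups overlap through 1 low Nx mouse, and the effect was 0.35 (SE 0.18, adjusted p = 0.11). Without that animal, mouse 7, it was 0.54 (adjusted p = 0.013). In B6 at day 28 Amotl2 was lower, at 7.52, 7.70, 7.73 and 7.88 in Nx kidneys, against 8.10, 8.15, 8.44 and 8.72 in sham kidneys. No mouse overlapped, with an effect of -0.64 (SE 0.18, adjusted p = 0.011), which no longer passed without Nx mouse 3 (-0.58, adjusted p = 0.0516) or sham mouse 3 (-0.52, adjusted p = 0.0585). In the other 4 surgery comparisons its effects lay between -0.20 and 0.26.

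Effects on Lats2 were small. In FVB at day 2 its levels were 9.69, 9.69, 9.74 and 9.74 in Nx kidneys, against 9.39, 9.41, 9.47 and 9.57 in sham kidneys. The groups did not overlap and the effect was 0.26 (SE 0.10, adjusted p = 0.0231). It did not pass without sham mouse 2 (0.24) or sham mouse 5 (0.23), and the next brightest Lats2 probe set pointed the other way (-0.08, adjusted p = 0.677). By day 53 in FVB the levels were 9.73, 9.85, 10.01 and 10.31 in Nx kidneys, against 9.55, 9.63, 9.79 and 9.84 in sham kidneys, which overlap. The effect there was 0.27 (SE 0.10, adjusted p = 0.0169), but 0.16 without Nx mouse 4, 0.22 without sham mouse 5 and 0.11 with every array shifted to 1 common median, none of which passed, and the next brightest probe set gave 0.33 (adjusted p = 0.0662). In B6 the effects were -0.02, -0.01 and -0.23 at days 2, 28 and 53, with adjusted p of 0.106 or more. At day 53 in B6, Lats2 was called lower with 1 median per array (-0.28, adjusted p = 0.0328). It was also called lower with array weights (-0.23, adjusted p = 0.0314). Without the arrays that carried pancreatic transcripts it was called lower too (-0.33, adjusted p = 0.0338).

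Axl is a receptor tyrosine kinase of the TAM family and a reported target of YAP in human cancer cells. It was the one gene of the 8 that passed the threshold as higher after Nx in every comparison of strain and day. At day 2 in FVB its levels were 8.67, 8.73, 8.76 and 9.37 in Nx kidneys, against 6.66, 7.07, 7.34 and 7.39 in sham kidneys. At day 53 in FVB they were 8.53, 8.61, 8.66 and 9.02 in Nx kidneys, against 6.66, 6.76, 6.92 and 7.03 in sham kidneys. Both differences were clear of any overlap, at 1.77 (adjusted p = 3.09e-09) and 1.86 (adjusted p = 9.07e-10), each with an SE of 0.21. At day 28 in FVB the levels were 7.34, 7.40, 7.73 and 8.19 in Nx kidneys, against 6.72, 6.91, 6.98 and 7.04 in sham kidneys. The effect was 0.75 (SE 0.21, adjusted p = 0.00943), and 0.58 without Nx mouse 7 (adjusted p = 0.0765). It was 0.40 without the arrays that carried pancreatic transcripts, which left only Nx mouse 2 there.

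In B6, Axl stood at 7.92, 8.31, 8.64 and 8.69 in Nx kidneys at day 2, against 7.18, 7.23, 7.39 and 7.57 in sham kidneys. At day 28 it stood at 7.38, 7.74, 7.78 and 8.88 in Nx kidneys, against 6.98, 7.15, 7.25 and 7.29 in sham kidneys. At day 53 it stood at 7.69, 7.89, 7.96 and 8.04 in Nx kidneys, against 6.87, 6.89, 6.91 and 7.05 in sham kidneys. The groups overlapped on none of these days, and the effects were 1.04, 0.78 and 0.96 (SE 0.21, adjusted p = 7.96e-05, 0.00675 and 0.000997). Mouse 3 carries much of the day 28 value, which was 0.46 without it (adjusted p = 0.1).

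The labels set the strains apart by their tendency to develop lesions, so the size of the Nx effect was compared between them. At day 53 the effect was larger in FVB than in B6 for 6 of the 8 genes, where 14.2% of all genes showed this. For Ankrd1 the difference of the effects, FVB minus B6, was 4.76 (95% interval 3.53 to 5.99, adjusted p = 2.34e-07). For Ccn1 it was 2.23 (1.13 to 3.33, adjusted p = 0.00174), for Ccn2 1.79 (1.30 to 2.28, adjusted p = 6.46e-07) and for Axl 0.90 (0.30 to 1.49, adjusted p = 0.0189). For Tead1 it was 0.69 (0.41 to 0.96, adjusted p = 0.000194) and for Lats2 0.50 (0.22 to 0.78, adjusted p = 0.00466). These 6 genes include the YAP partner Tead1 and some reported YAP targets, and a link between them was not tested. Amotl2 (0.48, -0.05 to 1.01, adjusted p = 0.174) and Yap1 (-0.07, -0.27 to 0.13, adjusted p = 0.669) did not pass. The Axl difference did not pass without mouse 8 of the FVB Nx group (0.79, adjusted p = 0.051), Amotl2 passed without mouse 7 (0.67, adjusted p = 0.0398), and the next brightest Ccn1 probe set gave 1.11 (adjusted p = 0.252).

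At day 2 none of the 8 differences between the strains passed the threshold in limma, where 4.41% of all genes did, and 3 of them had an unadjusted p under 0.05. The interval reached from -1.19 to -0.21 for Ccn2 and from 0.13 to 1.32 for Axl. Without mouse 1 of the FVB Nx group (-0.85, adjusted p = 0.0312) or mouse 9 of the B6 Nx group (-0.87, adjusted p = 0.0291) the Ccn2 difference passed. At day 28 none passed either, and none had an unadjusted p under 0.05, where 0.129% of all genes passed. The day 28 intervals were wide for Ankrd1 (-1.11 to 1.35) and Ccn1 (-0.25 to 1.96), and narrower for Yap1 (-0.21 to 0.19) and Tead1 (-0.28 to 0.27). Without the arrays that carried pancreatic transcripts, the Axl difference at day 28 was -1.25. It rests on Nx mouse 2 alone in FVB and Nx mouse 3 alone in B6, whose Axl level of 8.88 was the highest of its group.

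**Figure D3:**
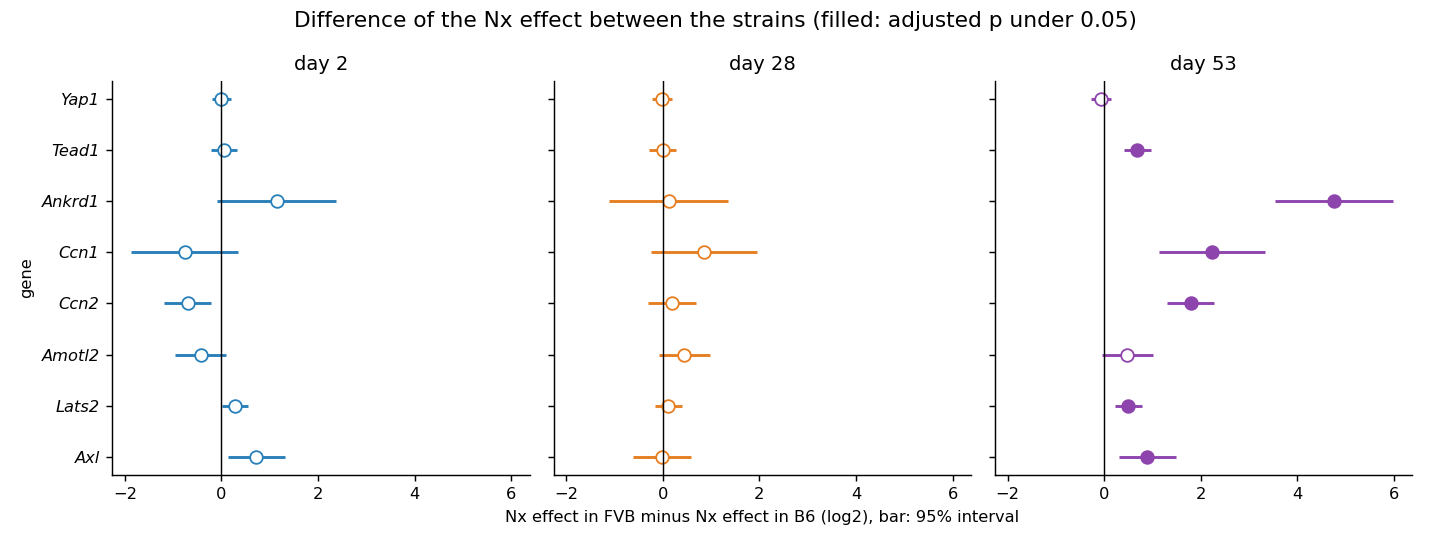
Difference of the Nx effect between strains for each of the 8 genes (horizontal axes, FVB minus B6 on the log2 scale, with 95% intervals) at days 2, 28 and 53. Filled points passed an adjusted p of 0.05. All 6 filled points are at day 53, with Ankrd1 at 4.76 the farthest from 0.

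The course over time differed by gene. Between day 2 and day 28 in FVB, the Nx effect fell by 2.43 for Ankrd1 (SE 0.61, adjusted p = 0.00281) and by 1.02 for Axl (SE 0.30, adjusted p = 0.0096), 2 of the 8 genes, where 12.5% of all genes moved down. Between day 28 and day 53 in FVB it rose for 5 of the 8, where 13.7% of all genes moved up. That second rise was 4.12 for Ankrd1 (adjusted p = 2.93e-06), 1.74 for Ccn1 (adjusted p = 0.0149), 1.15 for Ccn2 (adjusted p = 0.000411), 1.11 for Axl (adjusted p = 0.00438) and 0.87 for Tead1 (adjusted p = 8.82e-06). The Axl rise did not pass without the 3 arrays that carried skeletal muscle transcripts (0.88, adjusted p = 0.0618). The Ccn1 rise was 2.34 without the arrays that carried pancreatic transcripts, which left only Nx mouse 2 at day 28. On the next brightest probe set the Ankrd1 fall between day 2 and day 28 was -0.97 (adjusted p = 0.093), and the later Ccn1 rise was 1.45 (adjusted p = 0.124). In the fit of all arrays, Ccn2 and Tead1 were past the threshold in FVB at day 53 alone among its 3 days.

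In B6 the effect fell between day 2 and day 28 for Ccn1 (by 2.09, adjusted p = 0.0104), Amotl2 (by 0.90, adjusted p = 0.0218) and Ccn2 (by 0.80, adjusted p = 0.0306), where 4.02% of all genes moved down. Sham levels rose between these days as well. By group mean, Ccn2 went from 11.29 to 12.19 in sham and from 12.14 to 12.24 in Nx kidneys. Amotl2 went from 7.76 to 8.35 in sham and from 8.02 to 7.71 in Nx kidneys. Ccn1 went from 8.15 to 9.02 in sham and from 10.12 to 8.90 in Nx kidneys. When limma was run on the arrays compared alone, none of these 3 passed (adjusted p = 0.07, 0.052 and 0.0778). The Ccn1 change was -1.15 on its next brightest probe set (adjusted p = 0.361). Without the arrays that carried pancreatic transcripts it was -1.62, with only the Nx mouse numbered 3 left on each day. Single mice decided the calls of Ccn2 (adjusted p of 0.056 to 0.0932 without mouse 3 or 11 of the Nx group at day 2, mouse 5 of the Nx group at day 28, mouse 4 or 5 of the sham group at day 2, or mouse 6 of the sham group at day 28) and of Amotl2 (0.0532 to 0.0678 without mouse 3 or 11 of the Nx group at day 2, mouse 5 of the sham group at day 2, or mouse 3 of the sham group at day 28). Between day 28 and day 53 in B6, none of the 8 genes passed in limma and none had an unadjusted p under 0.05, where 0.0% of all genes passed.

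Sham kidneys of the strains differed for 3 of the 8 genes, where 32.5% of all genes differed. Over the 12 FVB and 12 B6 sham mice, FVB minus B6 was 0.29 for Amotl2 (SE 0.11, adjusted p = 0.031), -0.26 for Tead1 (SE 0.06, adjusted p = 0.000248) and -0.14 for Yap1 (SE 0.04, adjusted p = 0.0086). Tead1 in sham kidneys was thus lower in FVB, while the same gene was higher in FVB Nx kidneys at day 53 than in any B6 mouse. The Yap1 difference was 0.02 on its next brightest probe set (adjusted p = 0.964). The Amotl2 difference lost its call in 7 of the 24 fits that left out 1 sham mouse. Leaving out B6 sham mouse 5 of day 2, mouse 5 or 6 of day 28 or mouse 1 of day 53, or FVB sham mouse 4 of day 2, mouse 4 of day 28 or mouse 3 of day 53, gave adjusted p of 0.0523 to 0.0739, and without the arrays that carried pancreatic transcripts it was 0.24 (adjusted p = 0.107).

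The genes around YAP were read from lists chosen by role. Of 19 tested Hippo kinases, scaffolds and upstream regulators, 13 were higher and 3 lower in FVB Nx kidneys at day 53, against 0 higher and 2 lower in B6, with medians of 0.48 in FVB and 0.07 in B6. Over all genes at day 53, 25.9% were higher and 27.8% lower in FVB, and 8.03% were higher and 6.68% lower in B6, with medians of -0.01 in each strain. In FVB, Map4k4, a kinase that acts in parallel with MST kinases, averaged 8.31 ± 0.26 in Nx kidneys and 6.62 ± 0.30 in sham kidneys (SD, n = 4 each), an effect of 1.69 (limma, adjusted p = 2.98e-09). Nf2, the tumour suppressor merlin that activates the cascade, was lower after Nx in all 6 comparisons, at -0.58 in FVB (adjusted p = 7.46e-07) and -0.32 in B6 (adjusted p = 0.012) at day 53. The scaffold gene Wwc2 was also lower in all 6, at -0.43 in each strain at day 53. Mob1a, a LATS cofactor, was higher by 0.70 in FVB at day 53 (adjusted p = 3.33e-06) and Stk4, the MST1 kinase, by 0.48. The other LATS kinase gene, Lats1, passed in none of the 6 comparisons.

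Among TAZ, the other TEAD genes and the VGLL cofactors, 2 of 5 tested were higher after Nx at day 53 in both strains, with list medians of 0.13 and 0.07, where 25.9% of all genes were higher in FVB and 8.03% in B6. Wwtr1, which encodes TAZ, was higher by 0.57 in FVB (adjusted p = 1.13e-07) and by 0.28 in B6 (adjusted p = 0.0129), in contrast to Yap1. Vgll3, a TEAD cofactor, was higher in all 6 comparisons, by 2.57 in FVB (adjusted p = 1.71e-07) and 1.09 in B6 (adjusted p = 0.0399) at day 53. Tead2 was higher in FVB at day 2 alone, by 1.55.

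Of 16 other reported targets of YAP and TAZ, 8 were higher and 1 lower in FVB at day 53, and 4 were higher and 1 lower in B6, with medians of 0.36 and 0.15. The shares over all genes were 25.9% higher and 27.8% lower in FVB, and 8.03% and 6.68% in B6. Myof, a membrane repair protein, averaged 9.25 ± 0.09 in FVB Nx kidneys and 6.70 ± 0.47 in FVB sham kidneys at day 53 (SD, n = 4 each), with effects of 2.54 in FVB and 1.20 in B6. F3, tissue factor, had effects of 2.49 in FVB and 1.20 in B6, and Tgfb2, a growth factor of fibrosis, of 1.69 in FVB (adjusted p = 1.79e-10) and 0.39 in B6 (adjusted p = 0.144). Ccdc80, a matrix protein, was higher by 3.31 in FVB and 3.06 in B6, values close to each other. Others did not follow: Fjx1 and Dock5 had effects of 0.08 and -0.08 in FVB at day 53, and Igfbp3 was lower by 0.62.

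Genes of the serum response factor and its MRTF cofactors, which sense actin polymerisation, had 11 of 14 members higher in FVB at day 53 and 9 of 14 in B6, with none lower and medians of 1.37 and 0.71, where 25.9% and 8.03% of all genes were higher and the median over all genes was -0.01 in each strain. Actn1 (alpha-actinin) was higher by 2.16 in FVB and 0.72 in B6, and Vcl (vinculin), a focal adhesion protein, by 1.16 and 0.30. Both tested relatives of Ccn1 and Ccn2 were higher in all 6 comparisons. Ccn3 stood at 8.19 ± 0.35 in FVB Nx kidneys and 3.08 ± 0.68 in FVB sham kidneys at day 53 (SD, n = 4 each), an effect of 5.11, against 2.36 in B6. That FVB sham mean lies below the medians of whole arrays (3.17 to 3.44), so it is not shown to be above background. Of the TAM receptors and ligands beside Axl, the ligand gene Pros1 was higher by 1.31 in FVB at day 53, while the receptor gene Mertk was lower by 0.74. Gas6, the ligand of Axl, was lower at day 2 in both strains (-0.31 in FVB and -0.21 in B6) and higher at day 28 and day 53. Of 4 tested stretch and flow channels, Piezo1 was higher by 1.08 in FVB at day 53 (adjusted p = 2.09e-08), and Trpv4 was lower by 0.49.

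**Figure D4:**
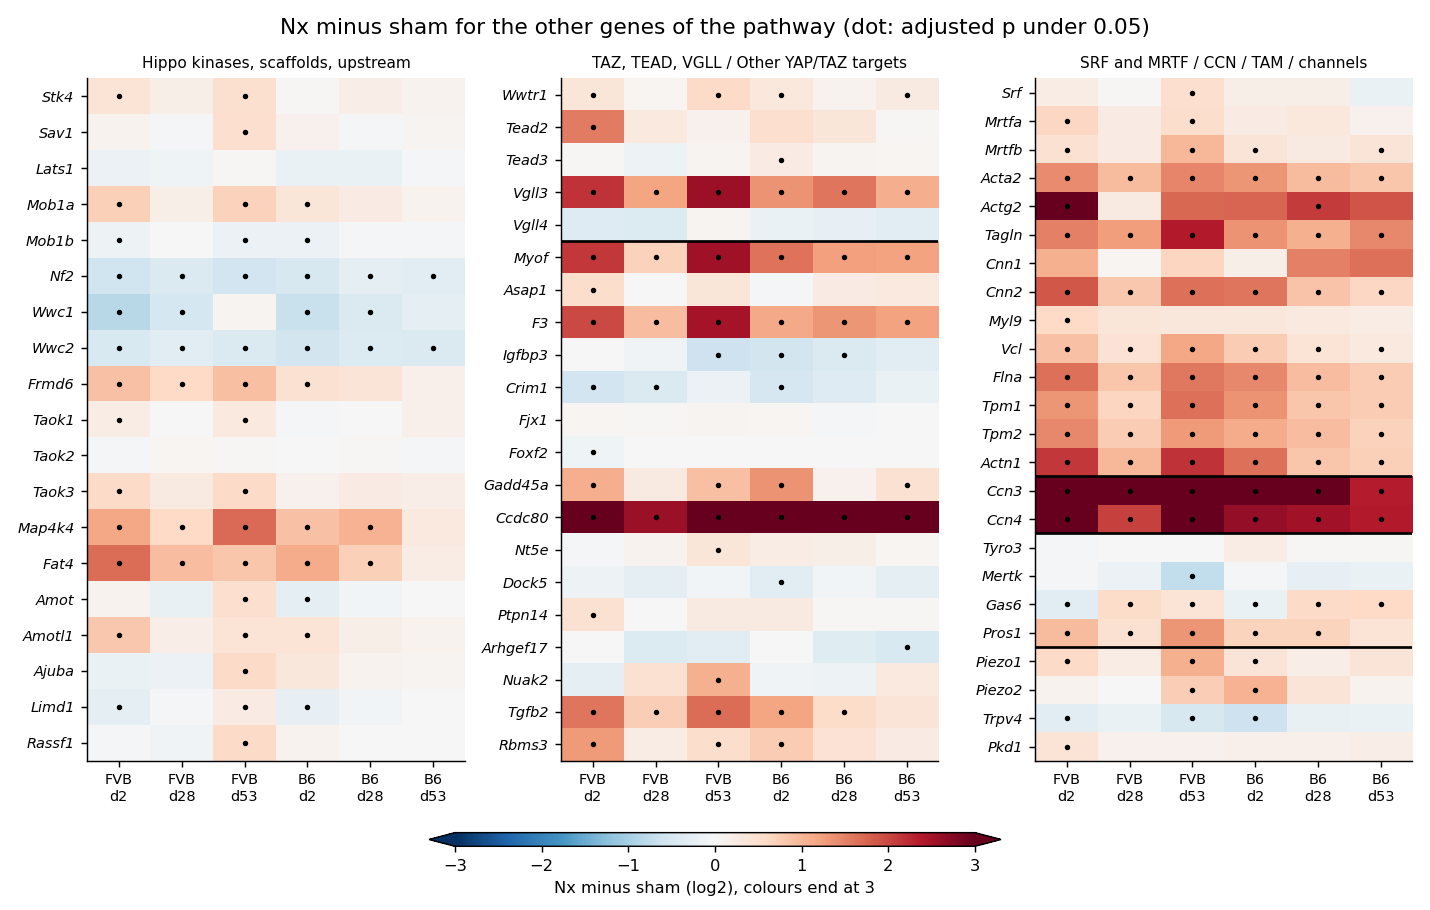
Nx minus sham on the log2 scale (colour, red higher and blue lower after Nx) for genes of 7 lists around YAP (rows) in the 6 comparisons of strain and day (columns). Dots mark an adjusted p under 0.05, and colours end at 3. Nf2 and Wwc2 are lower with a dot in all 6 columns, while Vgll3, Myof, F3 and Ccdc80 are higher with a dot in all 6.

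Proximal tubule markers had a list mean between 11.82 and 13.05 in every group. At day 53 their mean was 11.84 ± 0.19 in FVB Nx kidneys and 13.01 ± 0.04 in FVB sham kidneys, against 12.65 ± 0.11 in B6 Nx kidneys and 12.82 ± 0.07 in B6 sham kidneys (SD, n = 4 each). All 8 fibroblast markers and all 8 macrophage markers were higher in FVB Nx kidneys at day 53, as were 7 and 6 of them in B6. The fibroblast mean was 11.5 to 11.7 in FVB Nx kidneys and 7.78 to 9.05 in FVB sham kidneys, and 10.6 to 11.3 in B6 Nx kidneys and 8.34 to 8.89 in B6 sham kidneys. The macrophage mean was 9.78 to 10.5 in FVB Nx kidneys and 6.34 to 6.69 in FVB sham kidneys, and 8.74 to 9.16 in B6 Nx kidneys and 6.57 to 7.35 in B6 sham kidneys. Itgam lay at the lowest value of the table in the sham groups of both strains at day 53. In FVB at day 53 these markers were higher together with Ankrd1, Ccn1, Ccn2 and Axl. Most of them were also higher in B6 at day 53, where Axl (0.96) passed and Ankrd1 (1.19), Ccn1 (0.24) and Ccn2 (-0.40) did not. The fibroblast mean in FVB at day 2 was 12.89 in Nx kidneys and 9.16 in sham kidneys. On that day the FVB effects were 4.26 for Ankrd1, 1.77 for Axl, 1.21 for Ccn1 and 0.14 for Ccn2. The part of these cell types in the results was not tested.

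Ankrd1 is also a muscle gene, and 3 arrays carried skeletal muscle transcripts, with the actin gene Acta1 above 5. In the FVB Nx group at day 53, Acta1 stood at 9.38 in mouse 7 and 6.92 in mouse 8, and at or near the lowest value (2.20) in mice 4 and 10. Ankrd1 stood at 8.45 in mouse 7 and 10.20 in mouse 8, and at 9.51 in mouse 4 and 9.64 in mouse 10. Without the 3 arrays, the Ankrd1 effect in FVB at day 53 was 6.08 (SE 0.49, adjusted p = 3.11e-12), and the relatives Ankrd2 and Ankrd23 passed in no surgery comparison. The Axl difference between the strains did not pass without them (0.76, adjusted p = 0.09). Leaving out the arrays that carried pancreatic transcripts kept only Nx mice 8 and 10 of FVB at day 53. In mouse 8 the mean of the pancreatic acinar genes was 4.96, just under the cut of 5. Mouse 8 was also the highest of its group for Ankrd1, Ccn2, Axl and Tead1. In that setting the effects were 6.42 for Ankrd1, 2.87 for Ccn1, 1.64 for Ccn2, 1.97 for Axl and 0.85 for Tead1. All of these were past the threshold. The Lats2 effect of 0.23 was not (adjusted p = 0.0638).

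Across the 12 group means, the profile nearest to that of Ankrd1 was Myh9, non-muscle myosin heavy chain (Pearson r = 0.993), followed by Stim2 (0.991) and Klf6 (0.987). Axl was nearest to Fxyd5, Tmsb10 and Epb41l2 (0.993, 0.993 and 0.991). Ccn1 was nearest to Fbxo4 (0.972), Ccn2 to Dnajb4 (0.952), Tead1 to Eif3a (0.96) and Yap1 to Sestd1 (0.958). Amotl2 and Lats2 had no neighbour above 0.901 and 0.875. Among the 8 themselves, Ankrd1 ran closest to Ccn1 (0.909) and Axl (0.899), less to Ccn2 (0.739), and opposite to Yap1 (-0.534). These correlations describe 12 groups that share strains, days and the Nx and sham split.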

How the data were processed

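RNA of whole mouse kidneys was measured on 48 arrays with 45101 probe sets. The authors deposited log2 expression values per probe set. MAS5 is named per the submitters' processing notes, without its role, and background correction and normalisation are not given in the sources used here. Values ran from 2.20 to 16.2, and 32.1% of them lay at the lowest value. Of the probe sets, 34958 had 1 gene symbol in the platform annotation, 932 several and 9211 none.

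Probe sets above the 40th percentile (2.28) on at least 4 arrays were kept (29213, of them 24197 with 1 symbol), and each of 13174 genes was read from the brightest probe set left, by its mean over the arrays. All 12 groups were fitted together with limma 3.58.1 in R 4.3.3 (lmFit, contrasts, eBayes with an intensity trend), and p-values were adjusted by Benjamini-Hochberg over all genes in each of 16 contrasts. Every adjusted p is limma's, with a threshold of 0.05. The fit was tested on simulated data. Python 3.11.15 with numpy 2.4.6, pandas 2.3.3 and matplotlib 3.10.9 gave summaries and plots.

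The 8 genes and the lists were chosen with earlier results of these data known. From each pathway list, up to 3 genes with the smallest p in each surgery comparison were to be named. Stk4, Lats1, Fjx1, Dock5, Igfbp3 and Itgam were added after their values were seen. Each array is a separately numbered mouse, and p-values measure the spread between these mice. Mouse numbers recur between Nx and sham groups, but their 10 shared pairs correlated between -0.25 and 0.38, so they were not used as pairs. No pair of arrays held identical values.

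Alternatives covered the normalisation, the filter, the probe set, the variance model, array weights, the arrays fitted, a replicate block, arrays with pancreatic or skeletal muscle transcripts, and each mouse left out. Promoter windows came from RefSeq and were searched on both strands.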

Additional observations from a re-analysis of the deposited data

Results flagged for a closer look

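Single mice stood apart from the other 3 of their group in 6 of the 96 combinations of gene and group, by Dixon's test at its 95% critical value for 4 samples. Chance gives about 1 such group in 20. Ankrd1 stood at 6.02 in B6 Nx mouse 1 at day 53, against 4.255 to 4.548 in the others. In FVB sham mouse 5 at day 2 it stood at 2.198, the lowest value of the table, against 2.963 to 3.105. Ccn1 stood at 10.488 in FVB Nx mouse 2 at day 2, against 10.108 to 10.151, and Axl at 9.374 in that same mouse, against 8.674 to 8.759. Tead1 stood at 9.773 in B6 Nx mouse 9 at day 28, against 9.999 to 10.033, and at 9.392 in FVB sham mouse 1 at day 53, against 9.708 to 9.736.

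The Nx effect differed between FVB and B6 at day 53 by 4.7622 for Ankrd1, 2.2315 for Ccn1, 1.7888 for Ccn2, 0.8955 for Axl, 0.6856 for Tead1 and 0.5004 for Lats2, each past the threshold in limma's test of the difference itself. It also differed between days. In FVB it changed from day 2 to day 28 by -2.4303 for Ankrd1 and -1.0154 for Axl. From day 28 to day 53 it changed by 4.1236 for Ankrd1, 1.7397 for Ccn1, 1.1491 for Ccn2, 1.1073 for Axl and 0.8657 for Tead1. In B6 it changed from day 2 to day 28 by -2.0878 for Ccn1, -0.9023 for Amotl2 and -0.7967 for Ccn2. All are differences on the log2 scale.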

How the results depend on the processing

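Over 16 contrasts and all alternatives, 3095 of 3200 values of the 8 genes kept their call, 59 lost it, 43 gained one and 3 turned their sign with a call. Those 3 were Lats2 in FVB at day 2, at -0.145 with the mean of its probe sets and -0.084 with the next brightest, and Yap1 between the sham groups of the strains, at 0.023 with the next brightest. The alternatives of the next brightest probe set and of leaving out arrays with skeletal muscle transcripts were chosen after seeing the data. The cause of these changes was not tested.

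The number of the 8 genes past the threshold in B6 at day 53 was 1. It was 2 with 1 median per array and without arrays with pancreatic transcripts, where Axl was higher and Lats2 lower. It was also 2 with the stricter filter, with the replicate block and without arrays with skeletal muscle transcripts, where Ankrd1 and Axl were higher. With array weights it was 4, with Ankrd1 and Axl higher and Ccn2 and Lats2 lower. In FVB at day 2 it was 2, against 4, with the mean of probe sets and with the next brightest. In B6 at day 28 it was 1, against 3, with the arrays compared alone. For the difference between strains it was 1, against 0, at day 2 with array weights and without arrays with skeletal muscle transcripts. For the change from day 2 to day 28 in B6 it was 0, against 3, with the arrays compared alone, and in FVB it was 1, against 2, with the next brightest. Between sham days it was 1, against 0, in FVB with 1 median per array and with array weights, and 4, against 1, in B6 with array weights. Without arrays with pancreatic transcripts, a single Nx mouse of each strain remained at day 2 and at day 28. Counts of that setting for Nx comparisons with these days are therefore not given.

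Leaving out 1 mouse at a time gave 3 to 5 in FVB at day 2, 1 to 2 at day 28 and 5 to 8 at day 53. It gave 4 in B6 at day 2, 1 to 3 at day 28 and 1 to 2 at day 53. For the difference between strains it gave 0 to 1 at day 2, 0 at day 28 and 5 to 7 at day 53. For the change from day 2 to day 28 it gave 2 in FVB and 1 to 3 in B6, and for B6 sham days 1 to 2.

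Shifting each array to 1 median moved the share of calls that were higher over all genes. It was 26.6% against 45.3% in FVB at day 2, 33.8% against 45.5% at day 28 and 29.9% against 48.2% at day 53. In B6 it was 28.5% against 45.2%, 34.2% against 51.9% and 41.7% against 54.6%, and for the difference between strains at day 53 33.5% against 48.8%. For the change from day 2 to day 28 it was 69.0% against 50.5% in FVB and 64.9% against 54.7% in B6, and from day 28 to day 53 in FVB 35.1% against 52.0%. Medians over all genes moved to -0.20, -0.07 and -0.17 in FVB and -0.15, -0.09 and -0.06 in B6. Counts over all genes moved by more than 1.5 times with array weights (B6 day 53: 3288 against 1938; B6 day 28 minus day 2: 2521 against 1167; sham days: 860 against 472 in FVB and 891 against 103 in B6; strains at day 28: 30 against 17). They also did with the arrays compared alone (B6 day 28: 839 against 2501; strains: 324 against 581 at day 2 and 3 against 17 at day 28). Without arrays with pancreatic transcripts they were 222 against 103 for B6 sham days. With no filter, 1 gene against 0 passed for B6 day 53 minus day 28.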
